A study of Mus musculus with 9 samples.

Results

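Transcripts of 10 enzymes that break down tyrosine and tryptophan were followed across whole kidneys of Col4a3 knockout and wild-type mice. They were 4 enzymes of the tyrosine route (Hpd, Hgd, Gstz1 and Fah) and 6 of the kynurenine route of tryptophan (Aadat, Kmo, Kynu, Haao, Acmsd and Qprt). The genes were chosen by name as enzymes of these routes, after earlier results of the same libraries had shown Hpd and Aadat to be much lower in knockout than in wild-type kidneys. Their difference between PBS-injected knockout and wild-type kidneys is therefore a description here, with no test. They are 10 of the 22637 gene symbols in the deposited tables, and all 10 were among the 17315 symbols with enough reads to be tested. Acmsd and Kmo lie on chromosome 1, Kynu on 2, Hpd on 5, Fah and Qprt on 7, Aadat on 8, Gstz1 on 12, Hgd on 16 and Haao on 17.

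Tyrosine is turned into hydroxyphenylpyruvate and then into homogentisate, maleylacetoacetate and fumarylacetoacetate, which is split into fumarate and acetoacetate. Tryptophan is opened to kynurenine, which has 2 main fates. An aminotransferase turns it into kynurenic acid, or a hydroxylase starts the chain through hydroxykynurenine, hydroxyanthranilate and quinolinate to NAD, from which a side branch drains to acetyl-CoA. Besides the liver, the proximal tubule of the kidney is the main site of both routes, and loss of the last tyrosine enzyme, FAH, damages liver and proximal tubule in the inherited disease tyrosinemia.

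Messenger RNA was sequenced from 9 libraries of the 129X1/SvJ strain at 9 weeks of age. There were 3 libraries of Col4a3-/- mice that received antimiR-21, which blocks the microRNA miR-21 (KO_antimiR21), 3 of Col4a3-/- mice given PBS (KO_PBS) and 3 of wild-type mice with no treatment (WT). Col4a3 encodes a chain of the type IV collagen of the glomerular basement membrane, and mice without it are a model of Alport syndrome, an inherited kidney disease. Wild-type mice were not injected, so genotype and injection cannot be told apart, and although each deposited library name has a number of its own, no source used here says what it stands for or that each library is a separate animal, which means that the tests reflect spread among samples that may be partly technical.

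Levels are given as CPM, the read count scaled to the size of its library, and differences as log2 fold changes with their SE. Total expected counts ran from 26448275 to 31786624 per library, so depth was similar in all groups. Col4a3 stood at 70.6 to 138 CPM in KO_antimiR21 and 44.3 to 94.3 CPM in KO_PBS, against 257 to 371 CPM in WT. Kidney markers fitted the label: Slc34a1, the phosphate transporter of the proximal tubule, reached 3842 CPM in WT 1, Umod of the thick ascending limb 4654 CPM, and the liver gene Cps1 was at 0 in 8 of 9 libraries and at 0.30 CPM in KO_PBS 2. That library also had the highest levels of the hepatocyte markers Alb (37.4 CPM, against 0.0822 and 5.13 CPM in KO_PBS 1 and 3) and Ahsg (4.94 CPM, against 0.11 and 0.43 CPM in KO_PBS 1 and 3). Transcripts from the Y chromosome marked all libraries as male apart from WT 1 and WT 3, which were female, so sex and genotype can be compared only through WT 2. A library code in the deposited names, of unstated meaning, was L5 for KO_antimiR21 and KO_PBS 3 and L4 for the rest. KO_PBS 1 and KO_antimiR21 2 stood apart from the other libraries of their groups, as given below for the enzyme genes.

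The sequence of the microRNA under test is shown because its seed decides which transcripts it can pair with. In RefSeq (GRCm38.p6) it lies on the minus strand at chr11:86584120-86584141, and the capitals mark the seed, bases 2 to 8.
mmu-miR-21a-5p: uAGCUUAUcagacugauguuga
The matching 7-base site, ATAAGCT, was looked for in the longest annotated 3' UTR of each gene. A chromosome that holds none of the 10 enzyme genes was left out of this search. The 7-base site was found in 0 of the 10 enzyme genes and in 1462 of 20489 genes with such a region (7.14%). The 8-base site ATAAGCTA was found in 426 of those 20489 genes (2.08%). No match says only that these letters are not in those regions.

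Promoters are shown for the pair of enzymes with the largest difference between KO_PBS and WT (Hpd and Aadat) and for the one whose mean level was alike in all groups (Qprt). Each runs from 250 bases before to 50 bases after the annotated start in RefSeq (GRCm38.p6). They are Hpd at chr5:123182674-123182973 on the minus strand, Aadat at chr8:60505874-60506173 on the plus strand and Qprt at chr7:127121980-127122279 on the minus strand. Capitals mark motif matches.
Hpd: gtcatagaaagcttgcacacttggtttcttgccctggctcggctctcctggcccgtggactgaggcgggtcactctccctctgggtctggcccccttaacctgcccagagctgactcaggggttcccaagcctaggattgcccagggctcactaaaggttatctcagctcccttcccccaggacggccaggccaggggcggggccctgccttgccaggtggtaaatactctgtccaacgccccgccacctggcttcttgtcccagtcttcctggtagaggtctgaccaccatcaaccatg
Aadat: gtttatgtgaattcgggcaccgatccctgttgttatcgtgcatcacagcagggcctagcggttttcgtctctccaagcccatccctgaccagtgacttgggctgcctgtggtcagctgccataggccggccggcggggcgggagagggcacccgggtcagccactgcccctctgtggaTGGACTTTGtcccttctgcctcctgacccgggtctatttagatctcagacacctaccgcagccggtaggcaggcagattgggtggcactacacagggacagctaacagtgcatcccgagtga
Qprt: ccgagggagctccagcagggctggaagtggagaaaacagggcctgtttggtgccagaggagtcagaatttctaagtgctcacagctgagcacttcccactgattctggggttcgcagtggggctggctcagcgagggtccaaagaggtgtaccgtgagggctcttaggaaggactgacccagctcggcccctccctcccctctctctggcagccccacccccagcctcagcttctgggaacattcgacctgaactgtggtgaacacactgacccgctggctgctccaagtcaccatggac
Motifs of 2 kinds, chosen after the levels were known, were looked for on both strands. The promoters counted again left out a chromosome that holds none of the enzyme genes. CAAAGTCCA, a site of the receptor HNF4, was in 156 of 32851 promoters of that length (0.475%) and, among the 10 promoters found for 9 of the enzymes, in that of Aadat (TGGACTTTG on the strand shown, starting at -72). AGGTCA, a nuclear receptor half-site, was in 16.3% of promoters and in those of Acmsd (starting at -232), Hgd (at -84 and 34) and Haao (at -58). The motifs did not overlap in these promoters, and a match is a description of letters, not a bound site. Hpd and Qprt, at opposite ends of the range of differences, both held neither motif in this window.

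Between KO_PBS and WT kidneys, 9 of the 10 enzyme genes had a lower mean in KO_PBS. The difference was largest for Hpd and Aadat, the genes through which the set was chosen, so their rank is no separate result. Hpd stood at 5.08% and Aadat at 8.48% of the WT mean, while the next lowest, Haao, stood at 23.6%. Qprt, the last of these 10 enzymes on the way to NAD, was at 102% of it. The median log2 fold change of the 10 genes was -1.69, beside -0.03 for all 17315 genes tested.

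**Figure D1:**
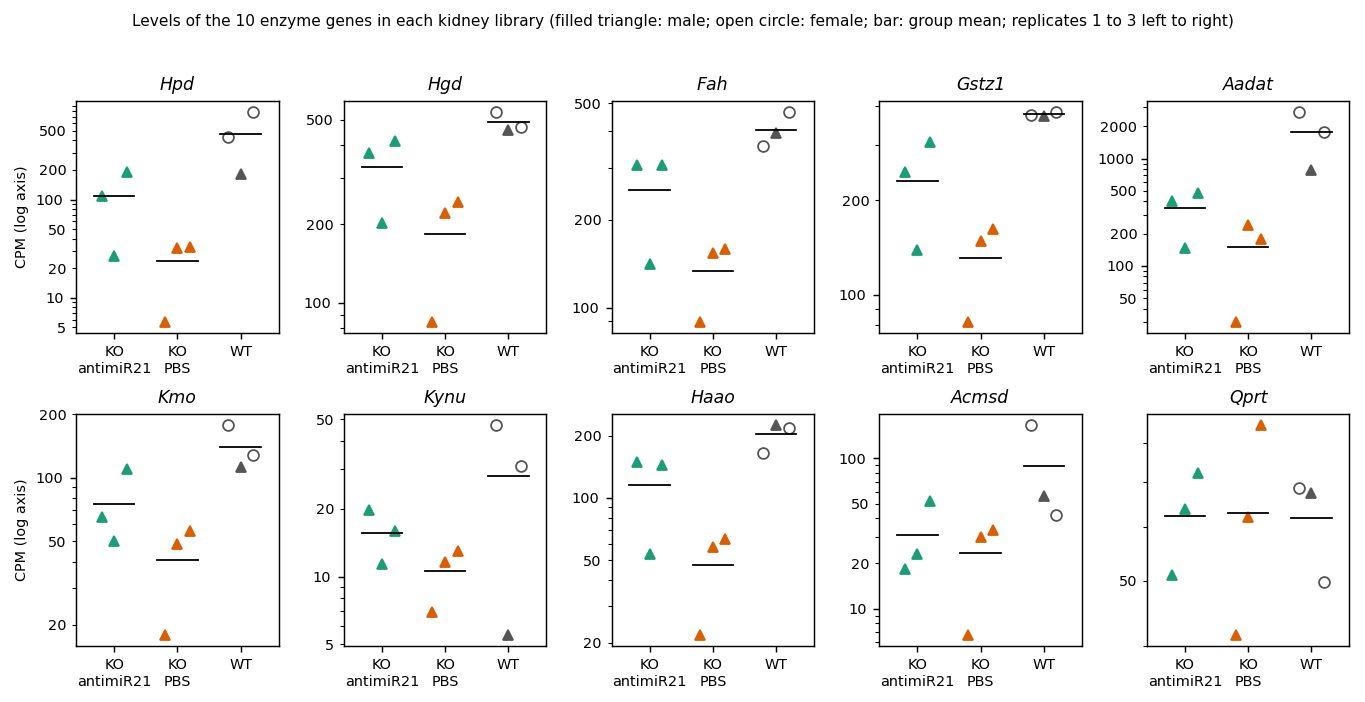
CPM of each enzyme gene (log axis) in every library, with KO_antimiR21, KO_PBS and WT from left to right; filled triangles are male libraries, open circles female ones, and the bar is the group mean. KO_PBS 1 is the lowest KO_PBS point in all 10 panels, and only the Qprt panel shows 3 group means at nearly the same level (62.4, 63.0 and 62.0 CPM).

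In the tyrosine route, Hpd makes homogentisate from hydroxyphenylpyruvate. Its level was 5.65, 32.4 and 32.8 CPM in KO_PBS 1, 2 and 3, against 433, 181 and 781 CPM in WT 1, 2 and 3. All KO_PBS libraries lay below all WT libraries, with the male WT 2 the lowest of WT (log2 fold change -4.30 ± 0.93, n = 3 each). Without KO_PBS 1 the log2 fold change was -3.83 ± 0.91.

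Hgd, which opens the ring of homogentisate and is the enzyme lost in alkaptonuria, had 84.2, 221 and 244 CPM in KO_PBS 1, 2 and 3, against 537, 459 and 472 CPM in WT 1, 2 and 3. The groups did not overlap, and the WT libraries were close together (-1.42 ± 0.40). Gstz1, the isomerase of maleylacetoacetate, had 81.6, 148 and 162 CPM in KO_PBS, against 373, 373 and 383 CPM in WT (-1.53 ± 0.32). Its WT libraries differed by less than those of any other enzyme here, and no KO_PBS library reached them. Fah, which splits fumarylacetoacetate, had 89.1, 154 and 158 CPM in KO_PBS, against 357, 394 and 467 CPM in WT (-1.60 ± 0.33). Again the groups did not overlap. These last 3 enzymes of the route stood at 37.4%, 34.7% and 33.0% of their WT means, in the order Hgd, Gstz1 and Fah, within a narrow band, while Hpd stood at 5.08%. Without KO_PBS 1 the 3 log2 fold changes were -1.08, -1.28 and -1.38 in the same order.

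In the kynurenine route, Aadat is the mitochondrial aminotransferase that makes kynurenic acid, and it also acts on aminoadipate in lysine breakdown. It had 29.9, 240.5 and 179.6 CPM in KO_PBS 1, 2 and 3, against 2729, 790.0 and 1787 CPM in WT 1, 2 and 3. The groups did not overlap, the lowest WT library being the male WT 2, and the log2 fold change was -3.56 ± 0.81 (-3.09 ± 0.67 without KO_PBS 1).

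Kmo, the hydroxylase that competes with Aadat for kynurenine, had 17.9, 48.7 and 55.7 CPM in KO_PBS, against 178, 113 and 129 CPM in WT (-1.78 ± 0.44). The groups did not overlap. Haao, which makes the precursor of quinolinate from hydroxyanthranilate, had 21.8, 58.0 and 63.3 CPM in KO_PBS, against 165, 226 and 217 CPM in WT (-2.09 ± 0.47). Its groups did not overlap either, and unlike for most of the others the male WT 2 was its highest WT library. Without KO_PBS 1 the log2 fold changes of Kmo and Haao were -1.43 and -1.74.

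Acmsd sits at the branch point, where it draws the product of HAAO away from quinolinate and NAD. It had 6.66, 30.2 and 33.3 CPM in KO_PBS, against 167, 56.3 and 41.7 CPM in WT (-1.92 ± 0.71). The groups did not overlap, but the nearest libraries, KO_PBS 3 and WT 3, were close. Kynu, which cleaves kynurenine and hydroxykynurenine, had 6.96, 11.7 and 13.0 CPM in KO_PBS, against 47.4, 5.49 and 31.2 CPM in WT (-1.41 ± 0.62). Here the groups overlapped, since the male WT 2 was below every KO_PBS library, and the sign turned when sex was taken into account (0.94 with a sex term). Qprt, which turns quinolinate into the NAD precursor nicotinate mononucleotide, had 41.5, 62.2 and 85.3 CPM in KO_PBS, against 68.7, 67.5 and 49.8 CPM in WT. KO_PBS held both the lowest and the highest of these 6 libraries, and the log2 fold change was 0.02 ± 0.26.

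In the fit over all genes, 7 of the 10 enzyme genes passed as lower in KO_PBS (Hpd, Hgd, Fah, Gstz1, Aadat, Kmo and Haao), where 9.85% of all tested genes did (24.4% in either direction). Groups did not overlap for 8 of them, those 7 and Acmsd, where 20.4% of all tested genes lay wholly lower in KO_PBS. As Hpd and Aadat drew attention through this contrast, nothing is read from these counts. Hgd did not pass without WT 1, WT 2, WT 3 or KO_PBS 2, Kmo did not pass without WT 1, and Aadat did not pass among the L4 libraries alone. Scaling by library size alone moved the median of all genes to 0.25 and left 9 of 10 enzymes lower. It changed the split of all genes called from 2521 higher and 1705 lower to 3753 higher and 904 lower.

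**Figure D2:**
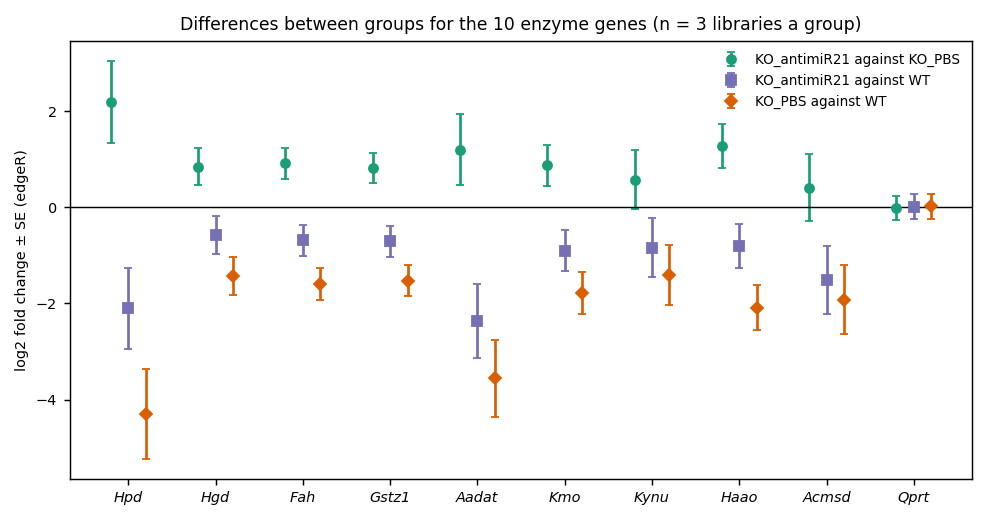
Log2 fold change ± SE of each enzyme gene in the 3 comparisons (circles, KO_antimiR21 against KO_PBS; squares, KO_antimiR21 against WT; diamonds, KO_PBS against WT; n = 3 libraries a group). Diamonds run from -4.30 for Hpd to 0.02 for Qprt, and circles lie above 0 for all genes but Qprt, with error bars that are widest for Hpd and Aadat.

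The WT libraries themselves differed for part of the enzymes. With 1 male WT library, sex cannot be told apart from other traits of WT 2. Both female WT libraries were above the male WT 2 for 6 of the 10 genes. The share of all tested genes with this order was not computed, so nothing is read from that count. The mean of the females was 7.16 times the male level for Kynu, 3.36 times for Hpd, 2.86 times for Aadat and 1.86 times for Acmsd, where WT 1 alone was above the male, as WT 3 had 41.7 CPM and WT 2 had 56.3 CPM. In contrast, the ratio was 1.10 for Hgd, 1.05 for Fah, 1.02 for Gstz1 and 0.85 for Haao, the enzymes with the least spread in WT. With 1 male WT library these ratios have no test.

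All knockout libraries were male, so WT 2 is the like-for-like control. Every KO_PBS library was below WT 2 for 8 of the 10 genes, all but Kynu and Qprt. How many of all tested genes lay likewise was not counted, so this count is a description only. Against WT 2 alone the KO_PBS mean stood at 13.1% for Hpd, 19.0% for Aadat, 21.1% for Haao, 34.0% for Fah, 35.0% for Gstz1, 36.1% for Kmo, 39.8% for Hgd and 41.5% for Acmsd. Kynu stood at 192% and Qprt at 93.3%. With sex as a term the log2 fold change of Hpd was -2.94 and that of Aadat -2.40, in place of -4.30 and -3.56, while Hgd (-1.33), Fah (-1.56), Gstz1 (-1.51) and Haao (-2.24) moved little. By edgeR, 0 of all genes passed between KO_PBS and WT with that term (4389 at an unadjusted p under 0.05) or with male libraries only (4396 at an unadjusted p under 0.05), so under these settings no call can be read for any gene.

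Levels of different genes can be set side by side only per length, here as CPM per kilobase of the longest annotated transcript. In WT the order was Aadat (mean 897 CPM per kilobase), Hpd (331), Hgd (287), Fah (256), Gstz1 (227), Haao (147), Kmo (38.1), Acmsd (32.5), Qprt (30.2) and Kynu (10.1). The WT libraries of Hpd, from 129 to 556 CPM per kilobase, spanned those of Hgd, Fah and Gstz1, and the ranges of Acmsd and Qprt overlapped with each other and with that of Kmo. In KO_PBS, Hgd led (107.5 CPM per kilobase), followed by Fah (84.4), Gstz1 (78.8), Aadat (76.1), Haao (34.5), Qprt (30.7), Hpd (16.8), Kmo (11.1), Acmsd (8.60) and Kynu (3.79). Hpd and Aadat thus lost the lead they had in the WT means, and Qprt stood above Hpd, Kmo and Acmsd by mean. The first 4 of that order had overlapping libraries. All knockout libraries were male, and in the male WT library Aadat led as well (400.6 CPM per kilobase). Hpd (128.6) stood there below Hgd (269.9), Fah (248.7), Gstz1 (225.1) and Haao (163.3). Against that library Hpd therefore had no lead to lose. In KO_antimiR21 the order was Hgd (194), Aadat (175), Fah (159), Gstz1 (139), Haao (84.0), Hpd (77.3), Qprt (30.5), Kmo (20.4), Acmsd (11.4) and Kynu (5.65 CPM per kilobase), the first 4 again overlapping.

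Markers of cell types moved with these levels. The summed CPM of 12 proximal tubule markers ran from 5038 to 10881 in KO_antimiR21 and from 2030 to 6438 in KO_PBS, against 13445 to 17615 in WT, and 8 of the 12 fell in KO_PBS against WT by the edgeR test (2 of them whichever library was left out). That of 10 macrophage markers ran from 595 to 1351 in KO_antimiR21 and from 1156 to 1264 in KO_PBS, against 187 to 256 in WT, and 9 of the 10 rose in KO_PBS and in KO_antimiR21 against WT. Of 5 podocyte markers 0 were called, and of 8 markers of other tubule segments 4 fell. In KO_PBS against WT, 9.85% of all tested genes were called lower and 24.4% in either direction. In KO_antimiR21 against WT, 7.15% were called in either direction. Of 7 hepatocyte markers 5 could be tested and 0 were called, with sums of 90.6 to 116 CPM in KO_antimiR21 and 17.1 to 151 CPM in KO_PBS, against 120 to 176 CPM in WT, mostly Ttr. Their part in the result was not tested, and in whole kidney fewer cells of a type and less RNA per cell cannot be told apart.

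Set against the median of the proximal tubule markers in each library, the enzymes differed from each other. On this relative log2 scale, the difference of KO_PBS from WT was -2.24 for Hpd and -1.65 for Aadat. The SD was 0.51 in KO_PBS and 0.98 in WT for Hpd, and 0.72 and 0.73 for Aadat. Sex was not taken into account here, and CPM of Hpd and Aadat in the female WT libraries averaged 3.36 and 2.86 times the male level. Haao was level with the markers (-0.02), and Acmsd (0.24), Kmo (0.29), Fah (0.56), Gstz1 (0.61) and Hgd (0.64) stood somewhat higher relative to them in KO_PBS. Kynu was at 1.22 and Qprt at 2.18. These values use the same libraries as the difference that drew attention to Hpd and Aadat, and have no test.

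**Figure D3:**
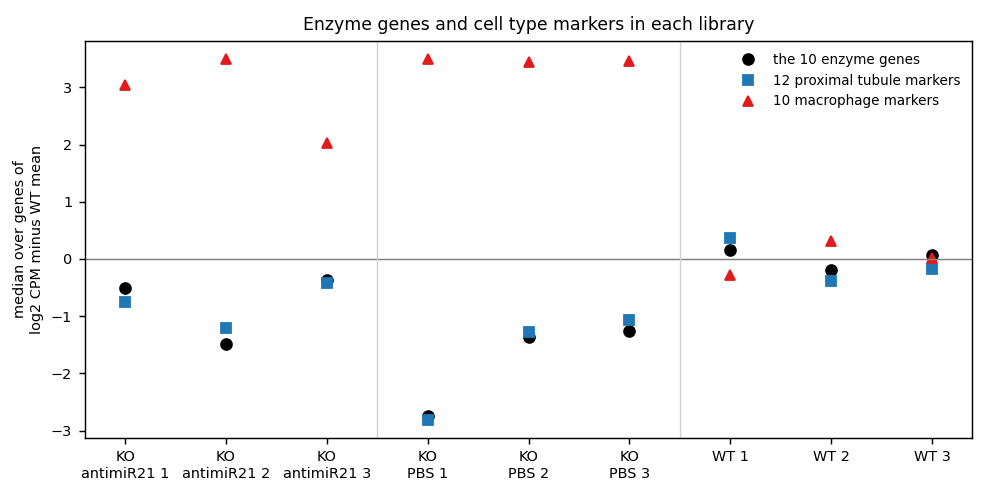
Median over genes of log2 CPM minus the WT mean in each library, for the 10 enzyme genes (circles), 12 proximal tubule markers (squares) and 10 macrophage markers (triangles). The enzyme genes lie at -0.51, -1.49 and -0.36 in KO_antimiR21 1, 2 and 3 and at -2.74, -1.37 and -1.26 in KO_PBS 1, 2 and 3, with the WT libraries near 0; proximal tubule markers follow the same order of libraries within each knockout group.

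Giving the miR-21 inhibitor to knockout mice raised no enzyme past the threshold, although 9 of the 10 means were higher in KO_antimiR21 than in KO_PBS. The comparison called 0 of the 10 enzymes and 0 of all tested genes (0.0%) by edgeR at an adjusted p under 0.05, against 1203 genes at an unadjusted p under 0.05 and 18 genes by DESeq2. The median log2 fold change of the 10 enzymes was 0.86, beside -0.01 for all genes. It was 0.57 without KO_PBS 1, 1.13 without KO_antimiR21 2 and 0.47 with a term for the library code, where 2 of the 10 enzymes were below 0. Within the L5 code alone it was 0.475.

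Hpd had 108, 26.7 and 191 CPM in KO_antimiR21 1, 2 and 3, against 5.65, 32.4 and 32.8 CPM in KO_PBS 1, 2 and 3 (log2 fold change 2.20 ± 0.85, edgeR adjusted p = 0.707). KO_antimiR21 1 and 3 were above every KO_PBS library, and KO_antimiR21 2 lay inside the KO_PBS range. Haao had 149.9, 53.7 and 145 CPM in KO_antimiR21, against 21.8, 58.0 and 63.3 CPM in KO_PBS (1.28 ± 0.46, edgeR adjusted p = 0.707). The pattern of libraries was the same as for Hpd. Fah had 308, 141 and 308 CPM in KO_antimiR21, against 89.1, 154 and 158 CPM in KO_PBS (0.91 ± 0.33, edgeR adjusted p = 0.707). Gstz1 had 247, 139 and 307 CPM in KO_antimiR21, against 81.6, 148 and 162 CPM in KO_PBS (0.82 ± 0.32, edgeR adjusted p = 0.707). These 4 enzymes had an unadjusted p under 0.05 (0.0207 to 0.0299), where 6.95% of all tested genes did, and none passed after adjustment. Hpd, like Aadat, drew attention through its low level in these same KO_PBS libraries, so its p here is not free of that choice.

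Of the others, Hgd had 374, 201 and 414 CPM in KO_antimiR21, against 84.2, 221 and 244 CPM in KO_PBS (0.85 ± 0.39). Aadat had 405, 147 and 482 CPM in KO_antimiR21, against 29.9, 240.5 and 179.6 CPM in KO_PBS (1.20 ± 0.74). For both genes KO_antimiR21 1 and 3 were high and KO_antimiR21 2 was within the KO_PBS range. Kmo had 64.8, 50.1 and 109.8 CPM in KO_antimiR21, against 17.9, 48.7 and 55.7 CPM in KO_PBS (0.88 ± 0.43), and Kynu had 19.8, 11.4 and 15.9 CPM in KO_antimiR21, against 6.96, 11.7 and 13.0 CPM in KO_PBS (0.57 ± 0.62). Acmsd, the branch-point enzyme, had 18.5, 23.1 and 51.7 CPM in KO_antimiR21, against 6.66, 30.2 and 33.3 CPM in KO_PBS (0.41 ± 0.69). Only KO_antimiR21 3 was above all KO_PBS libraries for it, and its sign turned without KO_PBS 1 (-0.01) or without KO_antimiR21 3 (-0.15). Qprt had 50.9, 64.0 and 72.4 CPM in KO_antimiR21, against 41.5, 62.2 and 85.3 CPM in KO_PBS (-0.01 ± 0.26), so that the KO_antimiR21 libraries lay inside the KO_PBS range. The edgeR adjusted p of these 6 enzymes was 0.707 to 0.998.

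The libraries behaved alike from enzyme to enzyme. KO_PBS 1 was the lowest KO_PBS library for all 10 genes, and KO_antimiR21 2 lay inside the KO_PBS range for all 10. For 8 genes, all but Acmsd and Qprt, both KO_antimiR21 1 and 3 were above every KO_PBS library. No gene had groups free of overlap, where 3.83% of all tested genes lay wholly higher in KO_antimiR21. The 10 genes come from the same 9 libraries, so their shared order is 1 observation on these libraries and not 10.

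Without KO_antimiR21 2 the log2 fold changes were 2.69 for Hpd, 1.65 for Haao, 1.23 for Fah and 1.11 for Gstz1, with the lowest edgeR adjusted p of any alternative tried for these 4 enzymes (0.191, 0.15, 0.141 and 0.157). Without KO_PBS 1 they were 1.76, 0.96, 0.71 and 0.60 (edgeR adjusted p = 0.95 for each). Among L5 libraries alone, where KO_PBS 3 was the only control and was assumed to vary like the other libraries, they were 1.73, 0.87, 0.67 and 0.51 (edgeR adjusted p = 0.999 for each). In the same order of libraries, the summed macrophage markers were 900.1, 1351 and 595 CPM in KO_antimiR21 1, 2 and 3, and the summed proximal tubule markers 8695, 5038 and 10881 CPM. KO_antimiR21 2, the lowest of its group for 8 of the 10 enzymes, thus had the most macrophage and the least proximal tubule signal, and the part of these in the result was not tested.

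Compared with WT, KO_antimiR21 kidneys had lower means for 9 of the 10 enzymes. At an unadjusted edgeR p under 0.05 were 2 of them (Hpd and Aadat), where 20.2% of all tested genes were, and 1 passed by DESeq2. By edgeR 0 of the 10 passed after adjustment, where 7.15% of all tested genes did. Of those 1164 were higher and 74 lower, so that 0.427% of all tested genes were called in the direction of the 9 lower enzymes. The median log2 fold change of the 10 was -0.82, beside -0.04 for all genes. It was -0.54 without KO_antimiR21 2 and -1.39 with a term for the library code. This comparison uses the same KO_antimiR21 libraries as the one before and the same WT libraries as the first, so it adds no separate evidence. Hpd and Aadat were picked out through these same WT libraries, so their p here is not free of that choice either. Aadat had the lowest adjusted p: its mean was 345 ± 175 CPM in KO_antimiR21 and 1769 ± 969 CPM in WT (SD, n = 3 each; log2 fold change -2.36 ± 0.77, edgeR adjusted p = 0.117). It passed by DESeq2 (adjusted p = 0.00628) and in edgeR without KO_PBS 1 (adjusted p = 0.0437), and its adjusted p over all alternatives ran up to 0.733.

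Hpd averaged 109 ± 82.0 CPM in KO_antimiR21 and 465 ± 302 CPM in WT (SD, n = 3 each; -2.10 ± 0.85, edgeR adjusted p = 0.206), which is 23.3% of the WT mean. Both genes remained the lowest of the 10 in proportion to the WT mean, as Aadat stood at 19.5%. Acmsd stood at 35.2%, Kmo at 53.5%, Kynu at 56.0%, Haao at 57.3%, Gstz1 at 61.3%, Fah at 62.1%, Hgd at 67.4% and Qprt at 101% of the WT mean. Against the male WT 2 alone, Hpd was not among the lowest. There Aadat stood at 43.6%, Haao at 51.4%, Acmsd at 55.2% and Hpd at 60.1%. Kynu stood at 286%, and the rest ran from 62.0% for Gstz1 to 92.5% for Qprt. With a sex term the log2 fold change was -1.20 for Aadat, -0.96 for Haao and -0.73 for Hpd. Groups did not overlap for 6 enzymes (Hgd, Fah, Gstz1, Aadat, Kmo and Haao), all lower in KO_antimiR21, where 9.82% of all tested genes lay wholly lower. The log2 fold changes of the enzymes other than Hpd and Aadat ran from -1.51 for Acmsd to 0.01 for Qprt (edgeR adjusted p = 0.257 to 0.99).

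Of 11 tested genes of tyrosine supply, cofactor synthesis and first products, 8 fell and 2 rose in KO_PBS against WT, where 9.85% of all tested genes were called lower, with a median log2 fold change of -0.64. The count rests on the scaling: with library size alone 3 fell and 2 rose, at a median of -0.36, and with the replicate block 5 fell and 0 rose. Pcbd1 and Qdpr, which recycle tetrahydrobiopterin, the cofactor of aromatic amino acid hydroxylases, fell by 1.46 and 1.06 on the log2 scale (edgeR adjusted p = 0.00375 and 0.0129), and Ddc, the decarboxylase of aromatic amino acids, by 1.35 (edgeR adjusted p = 0.0366). Gch1, which starts tetrahydrobiopterin synthesis, rose by 1.08 ± 0.27 (edgeR adjusted p = 0.0214), and Il4i1, an amino acid oxidase of immune cells, by 1.22 ± 0.35 (edgeR adjusted p = 0.0331). Macrophage markers rose in the same libraries, as given above. Tat, the aminotransferase that feeds Hpd in the liver, was listed at 0 in WT and at no more than 0.34 CPM elsewhere, while the more general aminotransferase genes Got1 and Got2 averaged 101 and 247 CPM in KO_PBS, against 142 and 380 CPM in WT. With any 1 library left out, the number of these genes that fell was 2 to 8 and that rose 0 to 2, and Pcbd1 and Qdpr passed every time. The calls of Ddc, Gch1 and Il4i1 were lost in 6, 4 and 5 of these fits (edgeR adjusted p up to 0.12, 0.0702 and 0.105).

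At the entry to the kynurenine route, 3 of 6 tested genes fell and 0 rose in KO_PBS, with a median of -1.19. Of all tested genes 9.85% fell. Afmid, which releases kynurenine from its formyl form, averaged 31.8 ± 11.7 CPM in KO_PBS and 99.7 ± 14.3 CPM in WT (SD, n = 3 each; -1.65 ± 0.35, edgeR adjusted p = 0.0115). Ccbl2, now Kyat3, encodes another kynurenine aminotransferase and averaged 21.7 ± 6.33 CPM in KO_PBS and 102 ± 33.6 CPM in WT (-2.24 ± 0.33, edgeR adjusted p = 0.00261). Both passed whichever library was left out. Of the other aminotransferase of this kind, Ccbl1 (now Kyat1), the log2 fold change was -0.73 ± 0.28 (edgeR adjusted p = 0.0926). Indol1, now Ido2, fell by 2.40 on the log2 scale (edgeR adjusted p = 0.0405) at low levels, 2.37 ± 1.63 CPM in KO_PBS and 12.5 ± 3.37 CPM in WT. Its call was lost when any of 7 single libraries was left out (edgeR adjusted p up to 0.0881). The ring-opening enzymes best known from liver and immune cells, Tdo2 and Indo (now Ido1), were too low to test, at group means of no more than 0.19 CPM.

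**Figure D4:**
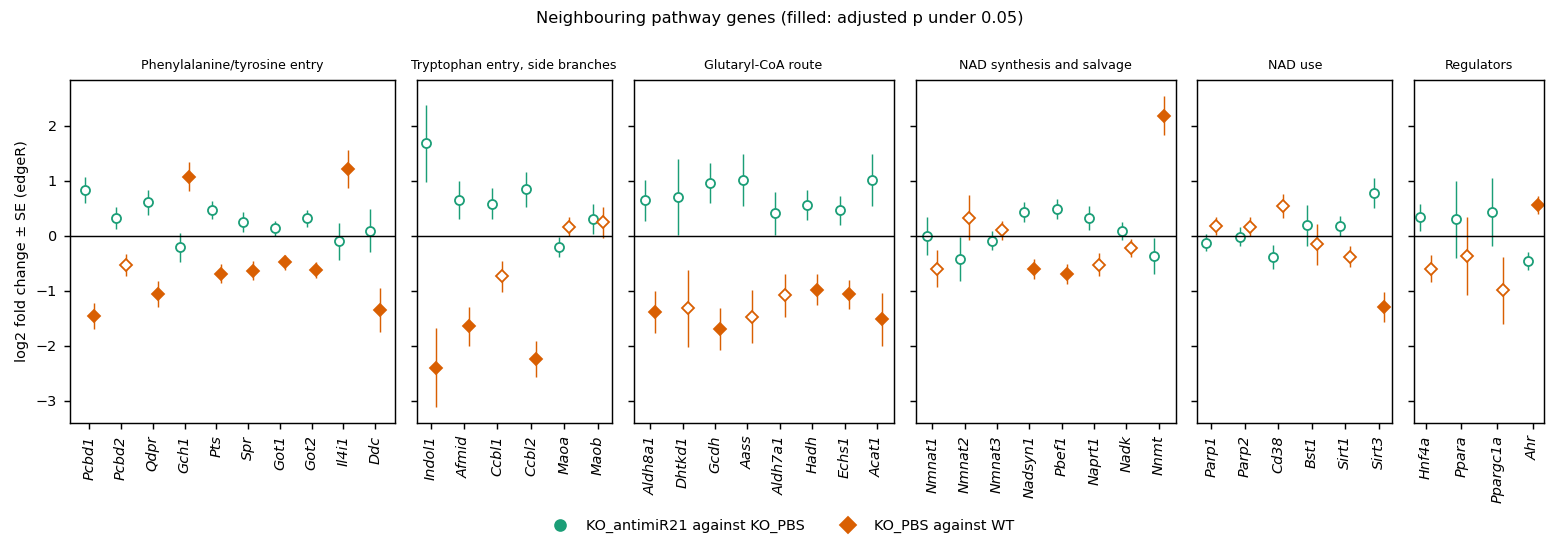
Log2 fold change ± SE of tested genes in 6 neighbouring lists (circles, KO_antimiR21 against KO_PBS; diamonds, KO_PBS against WT; filled where the adjusted p was under 0.05). No circle is filled, and most of the filled diamonds lie below 0 in the lists of tyrosine entry, tryptophan entry and the glutaryl-CoA route.

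Below Acmsd, the side branch runs through aminomuconate and glutaryl-CoA to acetyl-CoA and is shared with lysine breakdown. Of its 8 genes 5 fell and 0 rose in KO_PBS, where 9.85% of all tested genes fell, with a median of -1.36 for the 8. With library size alone 3 fell, at a median of -1.09, and 3 fell with the replicate block. Aldh8a1, the dehydrogenase that acts next after Acmsd, averaged 115 ± 52.7 CPM in KO_PBS and 301 ± 36.2 CPM in WT (SD, n = 3 each; -1.39 ± 0.38, edgeR adjusted p = 0.0279). Gcdh, the dehydrogenase of glutaryl-CoA, averaged 148 ± 56.0 CPM in KO_PBS and 479 ± 28.4 CPM in WT (-1.70 ± 0.38, edgeR adjusted p = 0.0135). Aass, the first enzyme of lysine breakdown, was at -1.47 ± 0.48 and did not pass (edgeR adjusted p = 0.0556). With 1 library left out, 1 to 6 of the 8 fell, and Gcdh passed every time.

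Of 8 tested genes of NAD synthesis past Qprt, of salvage and of related steps, 2 fell and 1 rose in KO_PBS, at a median of -0.37. Of all tested genes 24.4% passed in either direction. Among the called genes only Nadsyn1 acts past Qprt. With library size alone 0 fell and 1 rose, at a median of -0.0943. Pbef1, now Nampt, the enzyme that recycles nicotinamide, fell by 0.69 on the log2 scale (edgeR adjusted p = 0.0232), and Nadsyn1, which makes NAD from its acid form, by 0.61 (edgeR adjusted p = 0.0375). Both calls were lost without KO_PBS 1 or KO_PBS 2, among others. Nnmt, which methylates nicotinamide and so removes it from recycling, averaged 3.17 ± 1.01 CPM in KO_PBS and 0.69 ± 0.24 CPM in WT (2.19 ± 0.36, edgeR adjusted p = 0.00381), and passed whichever library was left out. The genes Nmnat1, Nmnat2 and Nmnat3, which join nicotinate mononucleotide to the adenylyl group, were at -0.60, 0.33 and 0.10 and did not pass (edgeR adjusted p = 0.241, 0.612 and 0.726).

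In all, 24 of the 45 tested genes of these lists and of 2 shorter ones passed between KO_PBS and WT. The share over all tested genes was 24.4%. Of the 24, 7 passed whichever library was left out. The other 17 lost the call without at least 1 library. The lists were drawn up with the results for Hpd and Aadat known. With a sex term none of the 24 passed. In KO_antimiR21 against KO_PBS, 0 of the 45 tested genes of these lists passed by edgeR or by DESeq2. At an unadjusted edgeR p under 0.05 were 10 of the 45, where 6.95% of all tested genes were. The medians there were 0.32 for tyrosine entry, 0.61 for tryptophan entry, 0.68 for the glutaryl-CoA route and 0.04 for NAD synthesis and salvage. With the library code term they were 0.18 for tyrosine entry, 0.225 for tryptophan entry and 0.242 for the glutaryl-CoA route. Leaving out 1 library gave 0.351 to 0.857 for tryptophan entry and 0.344 to 1.06 for the glutaryl-CoA route. Against WT, KO_antimiR21 had 1 lower gene, Ccbl2 (-1.40 ± 0.33, edgeR adjusted p = 0.0345), and 1 higher gene, Nnmt (1.82 ± 0.36, edgeR adjusted p = 0.0166). Of all tested genes 7.15% passed there. The call of Ccbl2 was lost without WT 1, WT 3, KO_PBS 3, KO_antimiR21 1 or KO_antimiR21 2 (edgeR adjusted p up to 0.134), and that of Nnmt without WT 1, WT 3, KO_antimiR21 1 or KO_antimiR21 2 (edgeR adjusted p up to 0.0608).

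The genes whose pattern over the 9 libraries was most like that of each enzyme were found by the root mean square difference of centred log2 CPM, a description with no test. Gstz1 had the closest neighbours of the 9 enzymes that were low in KO_PBS, among them Hibadh (0.0859) and Cat (0.0873), enzymes of valine and peroxide metabolism. Hgd was nearest to Fmo1 (0.113), Aldh8a1 (0.134) and Slc27a2 (0.134), and Fah to Ahcy (0.115), Slc22a18 (0.121) and Gstz1 (0.126). Kmo was nearest to BC026585 (0.133), with Fbp1 also near (0.162), and Haao to 1110028A07Rik (0.149), Notum (0.149) and Upb1 (0.156). Of the neighbours named so far, Aldh8a1 (of Hgd) and Gstz1 (of Fah) are genes of these same routes.

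Hpd and Aadat had no close neighbour on this scale. The measure was not adjusted for how widely a gene varied, so genes with a wide range, such as these, tend to lie further from others. Hpd was nearest to mKIAA1422 (0.393), Aadat (0.547) and Rph3a (0.565). Aadat was nearest to Rph3a (0.417), Slc22a9 (0.465) and Slc16a4 (0.468). Kynu had Igfals (0.314) and Xpnpep2 (0.329) among its nearest genes, and Acmsd was nearest to Abat (0.284), Pik3c2g (0.319) and the proximal tubule receptor gene Lrp2 (0.33). Qprt, level across the groups, lay nearest to Hdh (0.0889), Wdfy1 (0.108) and Ibtk (0.109), and its nearest enzyme among the 10, Gstz1, was at 0.72. All these measures share the same 9 libraries and their scaling.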

How the data were processed

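Whole-kidney RNA of 9 libraries (3 per group) was extracted with a miREASY kit and made into TruSeq v2 libraries, per the labels' protocols. The authors deposited expected counts per gene symbol for each library, made with Bowtie and RSEM on mm9, per the submitters' processing notes. Versions, annotation and strand are not given in the sources used here, and reads of genes that overlap were not told apart. The authors also deposited a log2 matrix (limma is named in the same notes), which equalled log2 CPM plus 1 constant per library to within 5.12e-14 and served as an alternative.

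Expected counts were rounded to whole numbers, filtered with filterByExpr (17315 of 22637 symbols kept), scaled by TMM (factors 0.894 to 1.15) and fitted for all 9 libraries at once with the edgeR 4.0.16 quasi-likelihood F test in R 4.3.3, two-sided, with Benjamini-Hochberg adjustment over all 17315 genes and a threshold of 0.05. Each adjusted p is from this test unless DESeq2 is named. CPM use the TMM-scaled totals. Scripts were tested on simulated data. Alternatives were library size scaling, DESeq2 1.42.0 size factors and test, no low-count filter, limma 3.58.1 on the log2 matrix, only the groups compared, a replicate block, a sex term, male libraries only, library code, and each library left out. Deviations of same-numbered libraries from their group means had correlations of -0.311 to 0.403, the highest for KO_antimiR21 1 and KO_PBS 1. These had no common sign, and the libraries were not treated as pairs. Libraries of unlike number were not compared in this way. Replicates of a group differed beyond sampling noise (chi-square per gene 29.6 or more).

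The text names all 10 enzymes, the genes of 6 pathway lists, markers, and the 3 nearest genes of each enzyme. Some genes that this rule takes are not reported here. Members and lists were chosen with earlier results of these data known. Older symbols were matched through the reference tables, and Nmrk1 was not matched. Sex was called at 10 CPM of summed Ddx3y, Eif2s3y, Jarid1d and Uty. Lengths and 3' UTRs are from GENCODE vM21. RefSeq sequences are on GRCm38.p6, not the build of the counts, so they were joined by name only. Promoters were found for 9 of the 10 enzymes. Figures were drawn with matplotlib 3.10.9, and tables with Python 3.11.15, pandas 2.3.3 and numpy 2.4.6.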

Additional observations from a re-analysis of the deposited data

How the results depend on the processing

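The number of genes passing between KO_PBS and WT (4226) was 0 with a sex term and 0 in male libraries only, and 2423 to 4332 with 1 library left out. The 7 enzymes passing there became 0 with a sex term and 0 in male libraries only, and 5 to 7 with 1 left out. Between KO_antimiR21 and KO_PBS, 18 genes passed by DESeq2 in place of 0. Between KO_antimiR21 and WT, the 1238 genes became 2011 by DESeq2, 707 with only those groups fitted, 0 with a sex term, 0 in male libraries only and 0 with a library code term, and 667 to 1602 with 1 left out; 1 enzyme passed by DESeq2, and 0 to 1 with 1 left out. With the replicate block, which does not pair samples here, 3205, 0 and 923 genes passed in KO_PBS against WT, KO_antimiR21 against KO_PBS and KO_antimiR21 against WT, and 6, 0 and 0 enzymes.

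The sign turned for 3 enzymes. Kynu in KO_antimiR21 against WT was at 1.51 with a sex term and 1.55 in male libraries only. Acmsd in KO_antimiR21 against KO_PBS was at -0.10 with the code term and -0.10 within code, and -0.15 to 0.79 with 1 left out. Qprt in that comparison was at 0.0012 with no filter, 0.0505 by limma, 0.00902 with the replicate block and -0.22 to 0.30 with 1 left out, and against WT at -0.0284 with the block, -0.11 with a sex term, -0.0825 in males, -0.71 with the code term and -0.13 to 0.137 with 1 left out. The cause was not tested. No library code holds both KO_antimiR21 and WT. With 3 libraries a group and 1 male WT library, sex and genotype cannot be told apart for genes that differ between WT males and females.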

Other observations

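Among 6 genes that use or break down NAD, 1 fell in KO_PBS against WT, where 9.85% of all tested genes did. It was the mitochondrial deacetylase gene Sirt3, with 41.2 ± 12.2 CPM in KO_PBS and 101 ± 10.9 CPM in WT (SD, n = 3 each). Its log2 fold change was -1.30 ± 0.28 (edgeR adjusted p = 0.0118), and it passed whichever library was left out. Sirt3 averaged 70.6 ± 22.1 CPM in KO_antimiR21 (0.78 ± 0.28 against KO_PBS, edgeR adjusted p = 0.707). Parp1, Parp2, Cd38, Bst1 and Sirt1 did not pass in KO_PBS against WT, with log2 fold changes from -0.38 for Sirt1 to 0.55 for Cd38.

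Among transcription regulators of liver and proximal tubule metabolism, Ahr, the receptor that kynurenine can activate, averaged 18.1 CPM in KO_PBS and 12.3 CPM in WT and rose by 0.55 ± 0.17 (edgeR adjusted p = 0.0401). The call was lost without WT 1, WT 2, WT 3, KO_PBS 1, KO_PBS 2 or KO_antimiR21 3 (edgeR adjusted p up to 0.13). Hnf4a was at -0.60 ± 0.25 and did not pass (edgeR adjusted p = 0.113). In KO_antimiR21 against KO_PBS 0 genes of both lists passed by edgeR or DESeq2.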
